A study of Arabidopsis thaliana with 3 samples.

Results

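HDA6-GFP regions on chromosome 4 of Arabidopsis thaliana were described here for the stretch at 1 to 7 Mb that holds the centromere, its flanking heterochromatin and the heterochromatic knob of the short arm. They were chosen by position alone: each is a line of the deposited chromatin immunoprecipitation sequencing (ChIP-seq) list whose midpoint lies in that stretch and more than 1 kb from any protein-coding gene body of the RefSeq annotation. By this rule 1231 of the 1376 regions of the stretch were kept, which is 16.5% of the 7477 regions on the 5 nuclear chromosomes. Of the other 145, 97 had the midpoint in a protein-coding gene body and 48 in a 1-kb flank. The kept regions nearest to the limit had midpoints 1000.5, 1001.0 and 1003.5 bp from a gene, and those just left out 988.0, 986.0 and 965.0 bp.

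The plants were 14-day-old Col-0 seedlings grown in long days that express a fusion of histone deacetylase 6 to green fluorescent protein from the HDA6 promoter (HDA6pro::HDA6:GFP). Whether they also carry an intact HDA6 gene is not given in the labels. DNA precipitated with an anti-GFP antibody from at least 5 immunoprecipitations was pooled for a library, and there were 2 ChIP samples and 1 input sample, all of the transgenic plants. No ChIP of plants without the fusion is among these samples, so signal of the antibody itself cannot be told apart from that of HDA6. Each list gives only positions and does not separate replicates. No difference below could therefore be tested over samples, and depth is unknown.

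HDA6 removes acetyl groups from histones. In Arabidopsis it is known for keeping transposons, transgenes and ribosomal RNA gene repeats silent, in part together with DNA methylation. Plant pericentromeres are packed with transposons and carry few active genes, and their chromatin is compact in most cells. The knob of chromosome 4 is an island of such chromatin within the gene-bearing short arm, and is thought to have been moved there from beside the centromere by an inversion.

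Sections were set by position, 6 in all, from the tip side of the short arm to the long arm. They are the distal short arm (1.0 to 1.6 Mb), the knob (1.6 to 2.3 Mb), the stretch between knob and pericentromere (2.3 to 2.8 Mb), the short-arm and long-arm sides of the centromere (2.8 to 4.0 Mb and 4.0 to 5.2 Mb, together called the centromere side) and the proximal long arm (5.2 to 7.0 Mb). Densities are given per Mb of sequence more than 1 kb from a protein-coding gene, called non-genic sequence here. It made up 75.3% of the knob and 89.9% of the centromere side, but 15.6% of the distal short arm, 29.9% of the stretch between them and 33.3% of the proximal long arm.

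HDA6-GFP regions were denser in the knob and on the centromere side than in the gene-bearing stretches on either side of the knob and on the proximal long arm. The knob held 183 regions, or 347 per Mb of non-genic sequence, and the centromere side held 965, or 447 per Mb. Against these, the distal short arm had 10 (107 per Mb), the stretch between knob and pericentromere 21 (140.4 per Mb) and the proximal long arm 52 (86.8 per Mb). In all, 78.4% of the 1231 regions lay on the centromere side and 14.9% in the knob. Per Mb of non-genic sequence the knob had 3.25-fold the density of the distal short arm and 2.47-fold that of the stretch on its centromere side. Non-genic sequence under 2 kb from genes was 50423 of 93562 bp in the distal short arm and 44531 of 526890 bp in the knob. In the stretch between it was 55966 of 149555 bp. At 1 to 2 kb the knob had 180 per Mb, the distal short arm 59.5 and the stretch between 107. At 2 to 5 kb they had 316, 174 and 117, and at 5 to 10 kb 389, 117 and 283. Outside the knob these bins held 1 to 8 regions each.

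**Figure D1:**
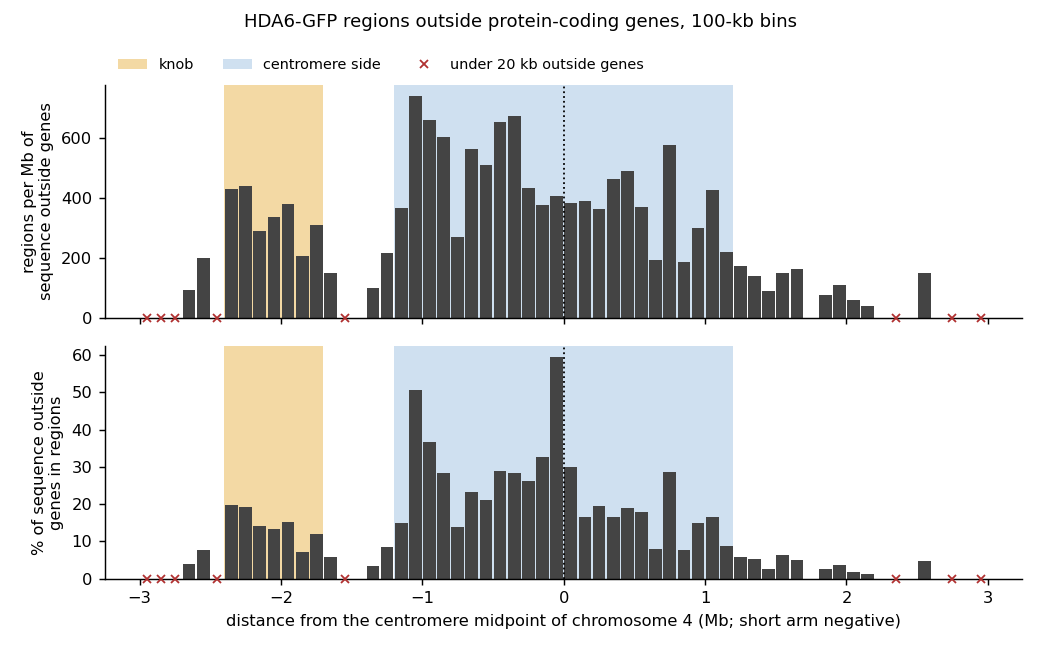
HDA6-GFP regions outside protein-coding genes in 100-kb bins along the stretch, as the distance in Mb from the centromere midpoint, with regions per Mb of non-genic sequence above and the percentage of that sequence inside regions below. Shading marks the knob and the centromere side, and crosses mark bins with too little non-genic sequence for a density. Knob bins range from 207 to 438 per Mb, and coverage peaks at 59.4% in the bin just short of the centromere midpoint.

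In 100-kb bins a step down in density could be measured only at the border of the knob that faces the centromere. The first bin of the knob, from 1.6 Mb, held 33 regions in 77045 bp of non-genic sequence (428 per Mb). The bin before it held 1 region in 13118 bp, too little sequence for a density. At the other border, the last bin of the knob had 311 per Mb and the bin beyond 2.3 Mb had 149. The knob was uneven inside, and its bin at 2.1 to 2.2 Mb had 207 per Mb, close to the 199 per Mb of the distal short arm at 1.4 to 1.5 Mb. At the outer edge of the pericentromere the first bin from 2.8 Mb had 366 per Mb and the next 739, against 218 per Mb in the bin before 2.8 Mb. At the long-arm edge the last bin before 5.2 Mb had 219 per Mb, against 175 in the bin beyond it.

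Compared with the centromere side, the knob had fewer regions per non-genic Mb and less of its sequence inside them. Density in the knob was 0.777-fold that of the centromere side, and regions covered 14.8% of non-genic sequence in the knob against 24.0% on the centromere side (0.617-fold). The difference in density was smaller when closely spaced lines were merged. When lines less than 1 kb apart were joined before counting, the knob had 186 joined regions per Mb and the centromere side 190.5, and the ratio was 0.976. Lines per joined region averaged 1.87 in the knob and 2.35 on the centromere side. Among regions whose widest input interval was no wider than the nuclear median, 622 of the 1231, the density ratio was 0.952, and coverage was 8.05% in the knob against 8.94% on the centromere side. The input intervals give no read depth, and their part in this difference was not tested.

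The centromere side was itself unequal. The long-arm side of the centromere had 371 regions per non-genic Mb against 519 on the short-arm side, and regions covered 17.5% of non-genic sequence on the long-arm side against 30.2% on the short-arm side. Joined at 1 kb, the densities were 187 per Mb on the long-arm side and 194 on the short-arm side. Coverage was also lower on the long-arm side without the 25 widest nuclear regions, at 16.3% against 26.4%, and without the 100 kb on each side of the centromere midpoint, at 16.2% against 27.5%. The knob was closer to the long-arm side (0.936-fold in density, 0.847-fold in coverage) than to the short-arm side (0.669-fold and 0.490-fold).

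Most regions were well under 1 kb wide. The median width was 360 bp in the knob (upper quartile 458 bp) and 372 bp on the centromere side (upper quartile 534 bp), and the narrowest of all was 182 bp. The sections differed in the wide tail. In the knob 6 of 183 regions exceeded 1 kb and 0 exceeded 2 kb, with a maximum of 1886 bp. On the centromere side 49 of 965 exceeded 1 kb and 19 exceeded 2 kb, 16 of these on the short-arm side. Regions in annotated pseudogenes and elsewhere were alike in width, with medians of 373 and 360 bp over the whole stretch.

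**Figure D2:**
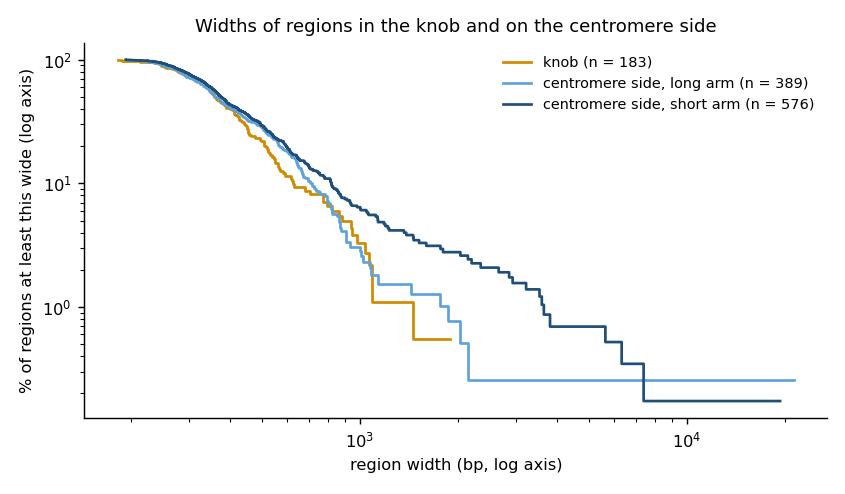
Widths of HDA6-GFP regions in the knob and on the long-arm and short-arm sides of the centromere, as the percentage of regions (log axis) at least as wide as the value on the log axis in bp. The 3 curves run together up to about the medians (360 to 376.5 bp), and the short-arm side keeps the largest share of regions over 1 kb (6.42%).

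The widest regions lay at the centromere itself. The widest ran from 3990615 to 4011800 (TAIR10, 21186 bp, the fourth widest nuclear region) and overlapped the annotated pseudogenes AT4G06712, AT4G06714 and AT4G06716. The next ran from 3964804 to 3984054 (19251 bp) and overlapped AT4G06708. Further regions of this block were 3950412 to 3956038 (5627 bp), at AT4G06700, and 3984073 to 3987721 (3649 bp), in no annotated gene. The input list had wide intervals at the same places, with 21482 bp over the widest region and 9630 bp over the next, where the median interval in non-genic sequence of the stretch was 444 bp. These intervals do not measure depth, and their part in the width of the regions was not tested.

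Of the 10 widest regions, 8 lay within 252 kb of the centromere midpoint and 2 lay 942 and 1070 kb from it on the short-arm side. The third widest, at 3054285 to 3061650 (7366 bp), covered the whole of 3 genes annotated as miscellaneous RNA, AT4G05175, AT4G05185 and AT4G05195, and overlapped the pseudogene AT4G06477. The eighth, at 2928470 to 2932066 (3597 bp), lay 9273 bp from the nearest annotated non-coding gene. The remaining 4 were at 3869695 to 3876005 (AT4G06664 and AT4G06666), 3864808 to 3868618 (AT4G06660), 3848752 to 3852290 (AT4G06656) and 3746863 to 3750082 (AT4G06626 and AT4G06628), all annotated pseudogenes. Each of the 10 had at least 99.3% of its bases in input intervals.

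Joined across gaps under 5 kb, the regions formed 154 runs, and 40 runs of at least 10 regions held 900 of the 1231 regions (73.1%). In the knob 5 such runs held 55.7% of the regions, and on the centromere side 35 held 82.7%. The median gap between neighbours was 1353 bp in the knob and 729 bp on the centromere side, and 6.59% of gaps in the knob against 12.6% on the centromere side were under 100 bp.

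The longest run spanned the centromere midpoint, from 3943745 to 4051397, with 52 regions that covered 68.1% of 107653 bp. It held 23 annotated pseudogenes, all 23 with a region, and its nearest protein-coding genes were AT4G06688, 19307 bp away, and AT4G06744, 19151 bp away. The second longest, at 3563569 to 3662362, had the most regions of any run (62, covering 26.0%), with 17 of its 20 pseudogenes holding a region. It lay between AT4G06639 and AT4G06598, and 1 further protein-coding gene lay inside it. The third was in the knob, at 1664600 to 1739660, between AT4G03740 and AT4G03820. Its 48 regions covered 27.5% of 75061 bp, and only 18 of them had the midpoint in an annotated pseudogene. Of the 25 longest runs, the one at 2910848 to 2958248, near the outer edge of the pericentromere, had the most regions per 10 kb (9.07) and the highest coverage. It was chosen for mention after its values were seen. Its 43 regions covered 72.0% of 47401 bp, 37 of them in no annotated gene, and their median widest input interval was 6588 bp against 1315 bp for all 1231 regions.

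Annotated pseudogenes, the class in which RefSeq commonly places Arabidopsis transposon genes, held the midpoints of most regions. The table gives no transposon class, so the elements cannot be sorted by family. In the knob 114 of 183 midpoints lay in one (62.3%, 95% Wilson interval 55.1 to 69.0%), and on the centromere side 584 of 965 (60.5%, 57.4 to 63.6%). These intervals overlap, and they cover counting error only. Pseudogenes made up 47.7% of non-genic sequence in the knob and 45.0% on the centromere side. Transcribed pseudogenes held 26 of the 1231 midpoints, other non-coding genes 3, and sequence with no annotated gene 449 (36.5%).

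The gene-bearing sections on either side of the knob differed from it mainly outside pseudogenes. Pseudogene sequence in the knob was covered to 19.3%, against 16.0% in the distal short arm and 13.5% in the stretch between knob and pericentromere. Other non-genic sequence was covered to 10.7% in the knob, against 0.627% in the distal short arm and 1.93% in the stretch between. The distal short arm rests on few regions, since 9 of its 10 lay in pseudogenes and 1 elsewhere. The proximal long arm was low in both, with 6.63% of pseudogene sequence and 1.62% of other sequence covered. On the centromere side the values were 28.5% and 20.3%.

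**Figure D3:**
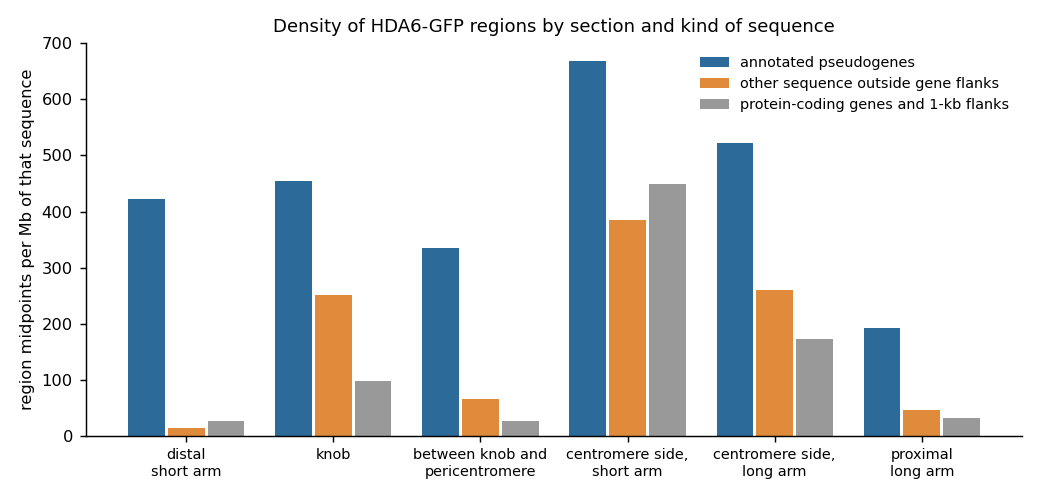
Density of HDA6-GFP region midpoints per Mb of annotated pseudogenes, of other sequence more than 1 kb from a protein-coding gene, and of protein-coding genes with their 1-kb flanks, in the 6 sections in chromosome order. Pseudogenes have the highest density in every section, and other non-genic sequence is above 250 per Mb only in the knob and on the centromere side.

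The contrast with genes also changed along the stretch. In the knob, regions were 3.54-fold as dense in non-genic sequence as in genes and their flanks (347 against 98.2 per Mb). On the long-arm side of the centromere the fold was 2.16 (371 against 172 per Mb), and on the short-arm side 1.16 (519 against 449.6 per Mb). The knob did not have the largest fold. It was 4.16 in the distal short arm and 5.47 in the stretch between knob and pericentromere, from 10 and 21 non-genic regions. On the proximal long arm it was 2.67. Genes and flanks took up only 91194 bp of the short-arm side, with 41 regions. They were covered to 19.1% there, against 30.2% of non-genic sequence. Within the knob the density was lowest next to genes, with 180 per Mb at 1 to 2 kb, from only 8 regions in 44531 bp. It was 316 at 2 to 5 kb, 389 at 5 to 10 kb, 351 at 10 to 20 kb and 387 beyond 20 kb. On the centromere side the same bins had 326, 415, 433, 480.2 and 456 per Mb.

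Counted by pseudogene, the share with a region was lower in the knob than on the centromere side. Among annotated pseudogenes that lie wholly outside gene flanks, 56 of 101 had a region in the knob (55.4%, 95% Wilson interval 45.7 to 64.8%) and 293 of 399 on the centromere side (73.4%, 68.9 to 77.5%). Over the whole stretch it was 374 of 565 (66.2%), where the same count over all 5 nuclear chromosomes was 51.8%. The long-arm side of the centromere had 123 of 192 (64.1%) and the short-arm side 170 of 207 (82.1%). The proximal long arm had 15 of 47 (31.9%). When only regions whose widest input interval was no wider than the nuclear median were used, 41.6% of pseudogenes had a region in the knob and 42.6% on the centromere side. The background includes pseudogenes far from any centromere, and neighbouring elements share runs, so no test was made of these shares.

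Long elements nearly all carried a region, and shorter ones did so less often. Of pseudogenes of at least 4 kb, 18 of 19 had a region in the knob, 20 of 22 on the long-arm side of the centromere and 37 of 38 on the short-arm side. Of those of 1 to 2 kb, 10 of 27 had one in the knob (37.0%), 30 of 52 on the long-arm side (57.7%) and 46 of 59 on the short-arm side (78.0%), and the intervals of the knob and the long-arm side overlap. Below 1 kb the shares were 42.3% in the knob, 46.8% on the long-arm side and 64.4% on the short-arm side. A longer element has more room for a region, and regions per kb of pseudogene were 0.842 below 1 kb and 0.582 at 4 kb or more over the whole stretch. Regions were counted here at any overlap, and a region that touched several elements counted for each. This raises the count per kb most in short elements, so the values do not correct for length.

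**Figure D4:**
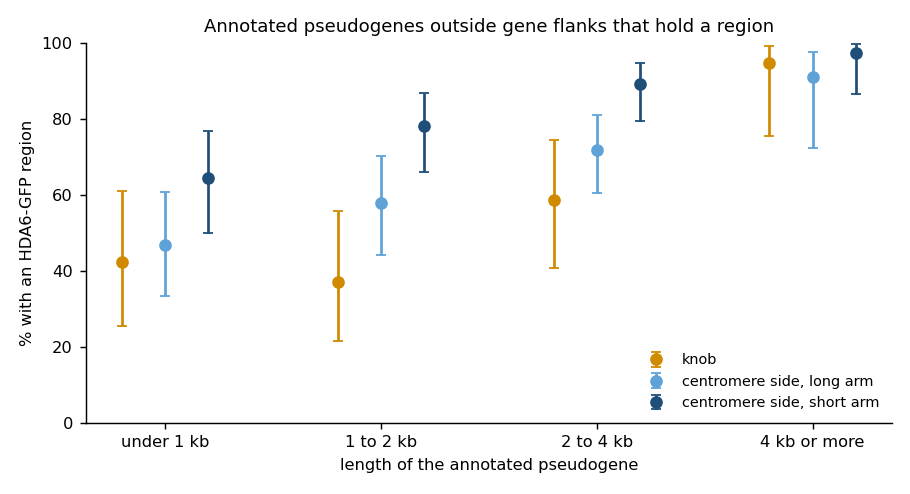
Percentage of annotated pseudogenes outside gene flanks that hold an HDA6-GFP region, by length of the pseudogene, for the knob and the long-arm and short-arm sides of the centromere. Points are shares and bars 95% Wilson intervals. In the longest class all 3 sections are above 90%, while at 1 to 2 kb they range over 37.0 to 78.0%.

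Among the 374 pseudogenes with a region, the median share of the length covered was 33.4%, and 113 of the 565 were covered over at least 50%. Of the genes of the stretch, 28 carried 5 or more regions, 4 of them in the knob, 3 on the long-arm side of the centromere and 21 on the short-arm side. These 28 genes had 20.6 to 85.6% of their length covered. They were 1923 to 7651 bp long, and 26 were annotated pseudogenes and 2 transcribed pseudogenes (AT4G06597 and AT4G07720). AT4G06546 and AT4G06604 had the most, with 8 regions each over 54.9% and 58.4% of their length. AT4G05638 and AT4G06506 had 7 each, over 79.1% and 78.3%.

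In the knob, AT4G04050 had 7 regions over 55.6% of its 6054 bp, between 1944671 and 1951160. AT4G03770 had 6 over 48.7%. AT4G03840 had 5, which covered 85.6% of its 3998 bp and included the widest region of the knob (1799315 to 1801200). The fourth was AT4G03650, an LTR retrotransposon locus (ATGP1) that is used as a reporter of silencing. Its 5 regions covered 58.7% of 4579 bp, between 1619431 and 1624076, just inside the outer border of the knob.

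AT4G08680, a Mutator-like element known as AtMu1 and also used as a silencing reporter, had 0 regions. The nearest kept region lay 9602 bp away, at 5532544 to 5532828, in the sparse proximal long arm. Regions at protein-coding genes were not included in this distance. RE2 (AT4G02960), named in the annotation as a retro element, was the only element with a gene symbol to carry a region. It had 2, over 18.9% of its 4437 bp, in the distal short arm.

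Other kinds of non-coding gene carried regions less often than annotated pseudogenes did, apart from the single transfer RNA gene. The kinds were not matched for length or section, and among pseudogenes the share with a region differed with both. Outside gene flanks, 10 of 32 transcribed pseudogenes had one (31.3%), as did 2 of 45 long non-coding RNA genes (4.44%) and 3 of 8 miscellaneous RNA genes, these 3 all within the single region of 7366 bp. Of 8 microRNA genes outside flanks 0 had a region, which allows a share of up to 37.5%. This limit is 3 over the number of genes, a rough rule for so few, and not a Wilson interval. The 1 transfer RNA gene with a region, AT4G08345, lay within the pseudogene AT4G08340, which had 4 regions.

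Within pseudogenes of at least 2 kb, midpoints lay somewhat more often toward the ends. The outermost 10% of the length at each end, together 20% of an element, held 146 of 566 midpoints (25.8%, 95% Wilson interval 22.4 to 29.6%), and the central 20% held 93 (16.4%, 13.6 to 19.7%). In the knob these ends held 28 of 92 (30.4%) and on the centromere side 104 of 430 (24.2%). Strand was not used here, so both ends were pooled. Of the 449 regions in no annotated gene, 221 (49.2%) lay within 1 kb of a pseudogene, where 37.9% of the non-genic sequence outside pseudogenes lies. Within the sections the shares were closer to those of the sequence, with 46.9% of regions and 49.8% of sequence in the knob and 50.1% of regions and 45.6% of sequence on the centromere side.

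All 1231 regions overlapped the input list, which covered 97.8% of the non-genic sequence of the stretch, and 716 of them (58.2%) lay wholly inside input intervals. The widest input interval at a region had a median of 1215 bp in the knob and 1399 bp on the centromere side. The interval length that holds the middle base of all non-genic input was 978 bp in the knob and 1195 bp on the centromere side. The value of a region is the widest of the intervals it touches, and 747 of the 1231 touched a single interval, so it cannot be set directly against the value per base.

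Chromosome 4 had the highest density of the 5 centromere surroundings under the same rule, within 3 Mb of the centromere midpoint and more than 1 kb from protein-coding genes. It had 349 regions per non-genic Mb, against 201, 291, 229 and 298 on chromosomes 1, 2, 3 and 5. Coverage was 17.7% on chromosome 4, against 8.60, 13.8, 12.2 and 14.99% in the same order. Without the knob chromosome 4 still had 349 per Mb, with 18.2% covered. Within 2 Mb of the midpoints the gap narrowed, to 378 per Mb on chromosome 4 against 352 on chromosome 5 and 348 on chromosome 2. These are single values per chromosome from a pooled list, and the differences were not tested.

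The profile of chromosome 4 was also the broader one on the short-arm side. In the 500 kb centred 2.25 Mb from the midpoint, where the knob lies, it had 363 regions per Mb, against 23.4 to 132 at that distance toward the start of the other chromosomes. On the opposite side it had 24.6 per Mb at the same distance, against 44.5 to 135 on the others. The highest single 500-kb bin was on chromosome 5, with 825 per Mb, above the highest of chromosome 4 at 518.

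**Figure D5:**
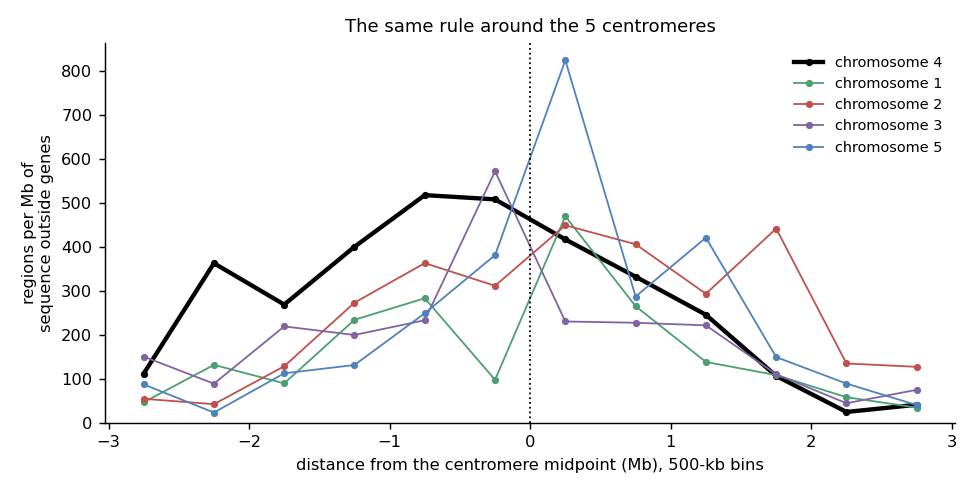
HDA6-GFP regions per Mb of sequence more than 1 kb from protein-coding genes, in 500-kb bins by distance from the centromere midpoint in Mb, for chromosome 4 (thick line) and chromosomes 1, 2, 3 and 5. Negative distances are toward the start of each chromosome. Chromosome 4 is highest in the bins left of -0.5 Mb except the outermost, and is below 110 per Mb beyond 1.5 Mb on the right.

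Chromosome 4 had the highest coverage of pseudogene sequence but not of other non-genic sequence. On chromosome 4, 61.2% of regions had the midpoint in an annotated pseudogene (95% Wilson interval 58.4 to 63.9%), against 48.7, 62.9, 54.5 and 44.8% in the same order of the others. Pseudogene sequence was covered to 23.8% on chromosome 4, against 12.3, 19.3, 11.9 and 16.9% in the same order. Other non-genic sequence was covered to 13.5% on chromosome 4, between the 13.8% of chromosome 5 and the 12.5% of chromosome 3. Chromosome 2 held the widest nuclear region (137370 bp). Without the 25 widest nuclear regions coverage was 16.2% on chromosome 4 and 12.7% on chromosome 2.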

How the data were processed

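Positions were taken from the 2 lists the authors deposited, each line a sequence name, start and end with no score, and starts are printed counted from 1. Per the submitters' processing notes Bowtie and SICER were used with the TAIR10 build. For versions, settings and the treatment of reads with several matches, the entry is not given in the sources used here, and the last would affect how many regions appear in repeats. Both lists were taken as pooled over their group. Genes came from the RefSeq table of assembly TAIR10.1, used for names, lengths and neighbourhood. No genome sequence was used, so no sequence is shown.

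Overlap means at least 1 bp. Shares carry 95% Wilson intervals, which treat regions as independent and cover counting error only. Sections were set in whole 100 kb from the known layout of the chromosome. Alternatives changed the gene distance, the section borders and the regions used, and an alternative was taken as close when within 1.5 times the value or inside the interval of a share. Those without the knob, for the 2 sides of the centromere and for the 100 kb beside the midpoint were added after seeing the data. Genes named are those at the 10 widest regions, with 5 or more regions, with a symbol, at the borders of the 3 longest runs, transfer and microRNA genes, and 2 silencing reporters. Regions and lists were chosen with earlier results of these data known. The interval code was tested on simulated data. Python 3.11.15, numpy 2.4.6, pandas 2.3.3, scipy 1.17.1 and matplotlib 3.10.9 were used.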

Additional observations from a re-analysis of the deposited data

How the results depend on the processing

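Of 103 values under alternatives, 88 stayed within 1.5 times the reported value or inside its interval and 15 moved further. This limit is wider than several of the differences reported, so the tally does not show that they held. Joined at 1 kb, the density of the long-arm over the short-arm side went from 0.714 to 0.964 and still counted as close. Leaving out the 25 widest nuclear regions did not change the values of the knob, where the widest region was 1886 bp. Direction was checked only for ratios, and 0 of these changed direction. The share of midpoints in pseudogenes, 62.3% in the knob and 60.5% on the centromere side, did change order with other borders. It was 57.1% with the knob at 1.7 to 2.2 Mb, and 62.7% with the centromere side at 3.0 to 5.0 Mb. The density of the knob over that of the centromere side ranged over 0.727 to 0.976. With only the 3739 widest nuclear regions, pseudogenes with a region were 41.6% in the knob, 58.9% on the centromere side and 51.3% in the whole stretch. With narrow input intervals they were 41.6, 42.6 and 40.9%, coverage was 8.05% in the knob and 8.94% on the centromere side, and midpoints in pseudogenes were 65.0% on the centromere side and 64.5% overall. Both settings use fewer regions, and the cause was not tested further. When at least 50% of a pseudogene had to be covered, shares were 13.9% in the knob, 24.1% on the centromere side and 20% overall. Counting any overlap with a pseudogene gave 64.8% of regions on the centromere side and 65.4% overall. Depth is unknown and limits what can be said of weak regions. No paired analysis was possible because the lists carry no replicate number.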

Other observations

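The longest stretches of the centromere side with few HDA6-GFP regions included a pair of neighbouring stretches without any annotated protein-coding gene or pseudogene. From 3194395 to 3221841 (27447 bp) and from 3222264 to 3261103 (38840 bp) 0 regions lay, and a single region of 422 bp separated the pair. Input intervals covered 98.6% and 98.5% of the bases. The longest stretch of the centromere side without a kept region, 47480 bp from 4787912, held 5 protein-coding genes and 5 pseudogenes. Those of 33613 bp from 5146434 and 30280 bp from 4051398 held 5 and 2 protein-coding genes. In the knob the 2 longest, 39825 bp from 2103277 and 38206 bp from 2209120, held 6 and 7 protein-coding genes and 4 pseudogenes each. Only 16733 and 12158 bp of these 2 were non-genic, and by the rule no kept region can have its midpoint in the rest.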
